A study of Homo sapiens with 32 samples.

Results

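The decay rates of RNA in MDA-LM2 cells were described within that line alone. MDA-LM2 descends from MDA-MB-231, a widely used human cell line of breast cancer origin, and was selected for its ability to colonise the lung. Every transcript with a rate for MDA-LM2 was included: 14545 of the 15772 transcripts with a rate in either line, of which 1579 have a rate for MDA-LM2 only. Transcripts with all 4 rates within 1 of 0 (12329, called in range here) were used for ranking, and the other 2216 are described apart. The in-range transcripts belong to 10575 of 11709 genes, and a gene's rate is the median over its in-range transcripts.

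Cells were given 4-thiouridine (4sU), a uridine analogue that is built into RNA as it is made, for 2 h. The medium was then exchanged for medium with an excess of uridine, and labelled RNA was precipitated after 0, 2, 4 and 7 h and sequenced. The labels list 16 such libraries of MDA-LM2 among 32 in all. The cells carried no other treatment in the labels. Each deposited rate summarises 1 series of 4 time points, so that a transcript has 4 rates, one for each of replicates 1 to 4, and a larger rate stands for faster loss. Whether the series came from separate cultures is not stated, so every p-value measures only the spread between these series, which the fit shares in part across genes.

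The level of an mRNA is set by the balance of its synthesis and its decay. Transcripts of regulators that must be switched on and off quickly, such as growth-factor-induced transcription factors, are known for rapid decay, whereas transcripts of the ribosome and of metabolic enzymes are known to be long-lived. Elements in the 3′ UTR contribute: AU-rich elements recruit proteins that lead to removal of the poly(A) tail, and the replication-dependent histone mRNAs end in a stem-loop in place of a poly(A) tail.

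Matches to the AU-rich element were counted in the genes at both ends of the MDA-LM2 ranking. Of the 15 fastest named genes, 14 had a 3′ UTR in the GENCODE 29 transcripts (build GRCh38), and 5 of these held the AU-rich heptamer TATTTAT, searched on the transcript's strand. None of the 12 slowest named genes with a 3′ UTR held it. In all, 32.2% of 11050 in-range coding transcripts hold the heptamer, and 33.8% of the fastest 10% of transcripts, so the share at the fast end was near that over all transcripts. In the slowest 10% it was 18.9%. The share depends on length, since the heptamer is in 5.57% of the group with the shortest 3′ UTRs and in 69.0% of that with the longest, when transcripts are divided into 5 equal groups by 3′ UTR length. The first match of each of the 5 genes is shown because their transcripts lie at the extreme of the ranking, with the heptamer in capitals and up to 9 bases of 3′ UTR on each side.
CCN1 (chr1:85583561-85583585, plus strand): tgaatgtttTATTTATcaaaatgta
CSRNP1 (chr3:39142887-39142911, minus strand): ctctggattTATTTATttgttttaa
PRICKLE1 (chr12:42459228-42459252, minus strand): aaacattgcTATTTATaacttagta
MIDN (chr19:1258127-1258151, plus strand): agtttggggTATTTATagactatta
PLD6 (chr17:17201996-17202020, minus strand): tttttatttTATTTATttatttatt

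A match to the histone stem-loop consensus was found in the annotated 3′ UTR of 18 of 38 replication-dependent histone genes, and in 19 of the 11050 in-range coding transcripts altogether. The other histone models gave no match in the annotated 3′ UTR, which for this list has a median length of 47 bases. The matches of H4C2 and H4C8 are shown because they are the fastest and the slowest member of the list. H3C10, H2BC21 and H2AC6 are shown as further examples, and their annotated 3′ UTRs are longer, at 816, 1801 and 1173 bases. The stem-loop is in capitals.
H4C2 (chr6:26026897-26026920, minus strand): caatGGCCCTTTTCAGGGCCgccc
H4C8 (chr6:26285127-26285150, minus strand): caaaGGCCCTTTTCAGGGCCgccc
H3C10 (chr6:27810512-27810535, plus strand): caaaGGCTCTTTTCAGAGCCaccc
H2BC21 (chr1:149886184-149886207, minus strand): caaaGGCTCTTTTCAGAGCCaccc
H2AC6 (chr6:26124665-26124688, plus strand): caaaGGCTCTTTTCAGAGCCcccc

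In-range rates formed a single broad peak above 0. The median was 0.143, 0.168, 0.146 and 0.153 in replicates 1 to 4, with a mean of 0.153 ± 0.0112 (SD, n = 4 series), and replicate 2 was the highest. The middle of the distribution ran from 0.0712 ± 0.00801 at the 25th percentile to 0.247 ± 0.0129 at the 75th, and the 99th percentile was 0.593 ± 0.00734. Rates were above 0 in all 4 series for 9887 transcripts (80.2%) and below 0 in all 4 for 240 (1.95%). A mean above 0.5 was reached by 104 transcripts. The spread of 1 transcript over the series had a median SD of 0.0483, and it was largest at the fast end, with a median of 0.0888 in the fastest 10% of transcripts against 0.0526 in the slowest 10%.

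**Figure D1:**
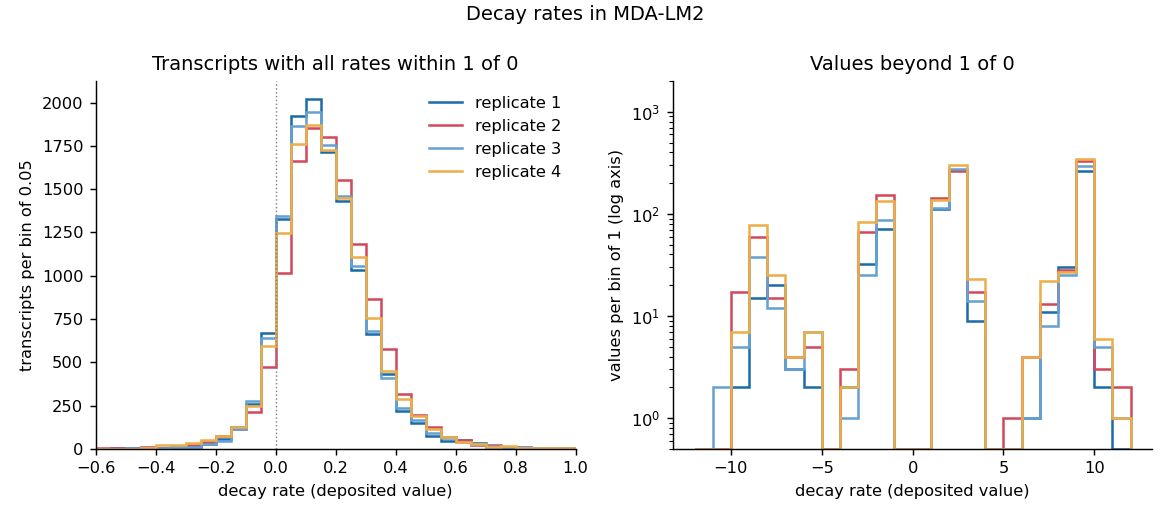
Left, number of in-range transcripts per bin of 0.05 of the decay rate, one line per replicate series; right, number of values beyond 1 of 0 per bin of 1 on a log axis, where bins without a value lie on the axis. The in-range peaks of the 4 series nearly coincide, with medians from 0.143 to 0.168, and the values beyond 1 fall into separate clusters.

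Series with the same second number in their label ranked transcripts more alike than the other pairs. Across the 12329 in-range transcripts, Spearman's rho was 0.828 between replicates 1 and 3 and 0.792 between replicates 2 and 4, and from 0.591 to 0.603 for the other 4 pairs. These are correlations across transcripts, which are not independent replicates, and what the second number stands for is not given in the sources used here. The ranking held in part from one pair of series to the other. The fastest 10% of transcripts by replicates 1 and 3 had a median of 0.392 in those series and 0.324 in replicates 2 and 4, where 41.5% were again in the fastest 10%. The slowest 10% by replicates 1 and 3 had a median of -0.0317 there and 0.0273 in the other series, where 44.4% were again in the slowest 10%.

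Calls compare a rate with the median of its series by limma (two-sided, Benjamini-Hochberg adjusted p under 0.05). Over genes, 2699 of 10575 (25.5%) decayed faster than the median gene and 3029 (28.6%) slower. With a correlation allowed between series that share the second number, 1895 genes (17.9%) were faster and 2518 (23.8%) slower. Over transcripts, 2896 of 12329 (23.5%) were faster and 3263 (26.5%) slower, and with the correlation 1892 (15.3%) and 2554 (20.7%). Without replicate 1 the count of faster transcripts was 1735, and without replicate 3 it was 1831. The shares over genes are the background against which the counts of each class below are read. Within each class, the slowest, the middle and the fastest member are named by rule; other members were chosen after their values had been seen.

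**Figure D2:**
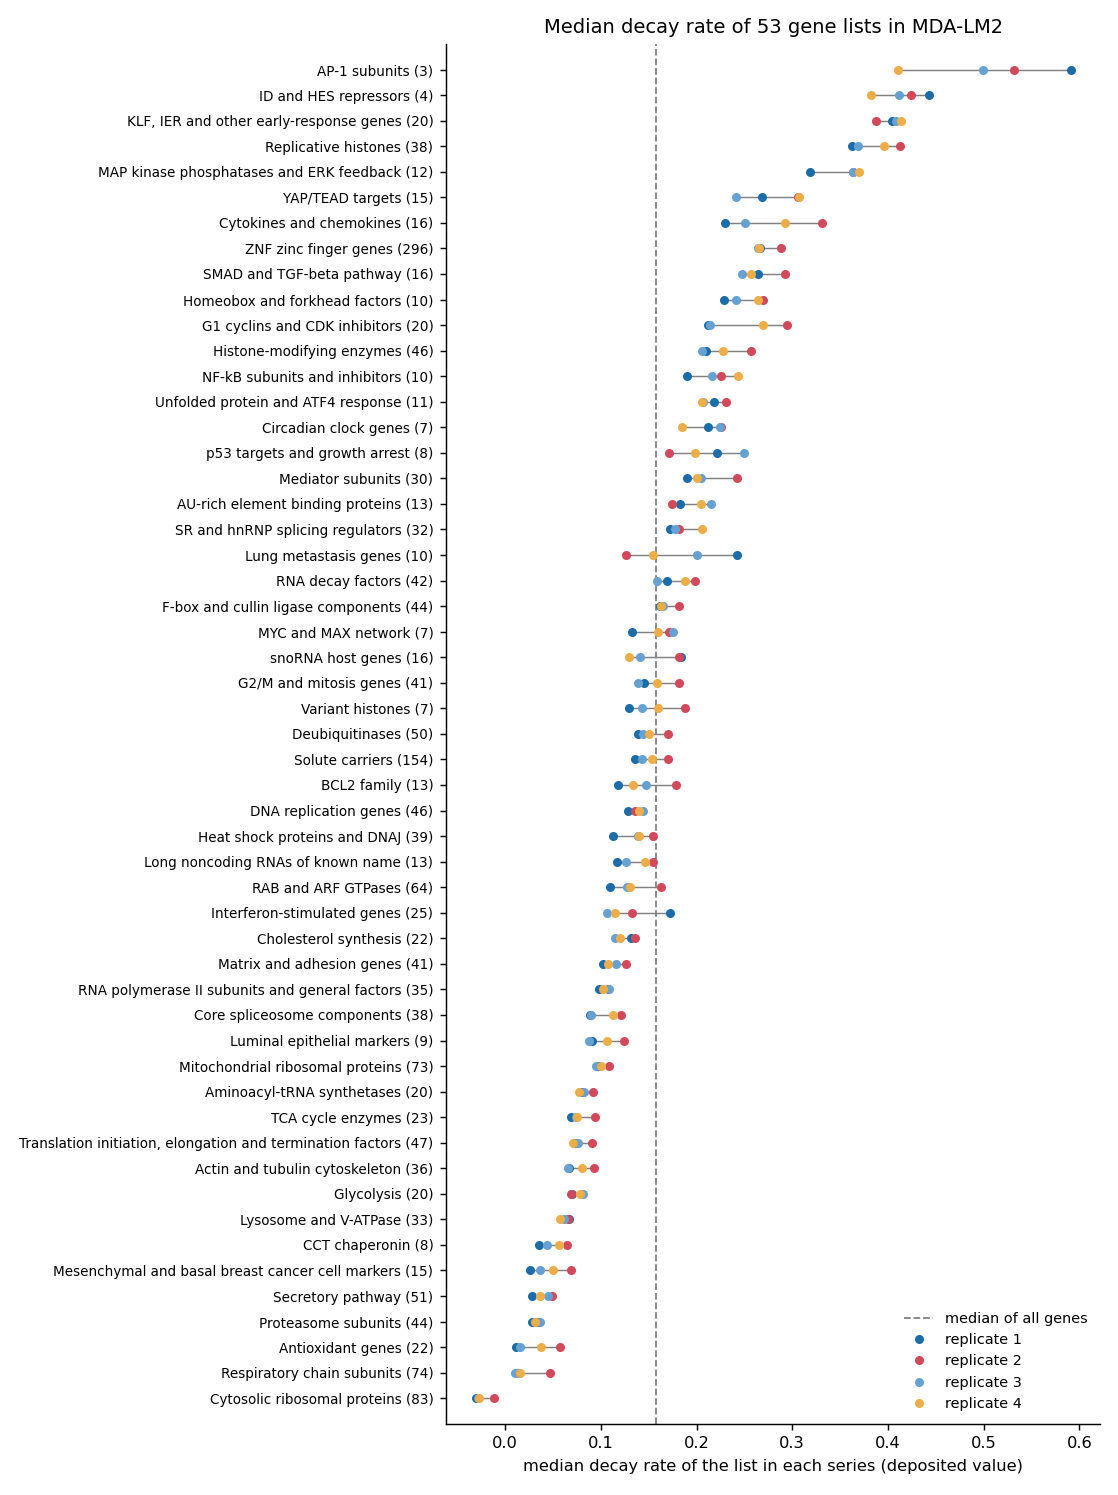
Median decay rate of each of 53 gene lists in each replicate series, with the number of in-range genes in parentheses and a bar from the lowest to the highest series; the dashed line is the median of all genes, 0.158. Cytosolic ribosomal proteins are the slowest list and AP-1 subunits the fastest, and the lists at both ends lie on one side of the line in all 4 series.

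The lists with the highest median rates were those of AP-1 subunits, ID and HES repressors, and other genes of the early response to growth signals. AP-1 is a dimeric factor built from FOS and JUN proteins, and all 3 of its in-range subunits decayed faster than the median gene. FOSL1 had rates of 0.591, 0.532, 0.583 and 0.521, and JUN of 0.597, 0.726, 0.4998 and 0.411. FOSL2 was the slowest of the 3 at 0.366 ± 0.0204 (SD, n = 4 series, limma adjusted p = 0.00278). Every series of the 3 genes lay above the highest series median of all genes, 0.173. FOS, JUND, ATF3 and BATF3, the other AP-1 subunits measured, each had at least 1 rate beyond 1 and could not be ranked. FOS itself had 0.519, -0.881, 9.21 and 9.30.

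The list of KLF, IER and other early-response genes, which also holds kinases, a survival factor and other proteins that are not transcription factors, had a median of 0.403 ± 0.0114 over 20 in-range genes, of which 18 were faster and none slower. With the correlation between series, 15 were faster. KLF4, a zinc finger factor of the stem cell programme, was the fastest with 0.976, 0.649, 0.641 and 0.609, so that replicate 1 stood above the other 3 (adjusted p = 0.00592). CSRNP1, a nuclear protein induced by AXIN1, followed with 0.767, 0.641, 0.731 and 0.728. IER3, nearest the middle of the list, had 0.367, 0.377, 0.350 and 0.618. BHLHE40, a repressor tied to the circadian clock, had 0.639 ± 0.0437, and MCL1, a short-lived survival factor, 0.375 ± 0.0150. KLF13 was the slowest at 0.201 ± 0.00811, with an adjusted p of 0.0261 that rose to 0.0628 with the correlation between series and to between 0.0724 and 0.0961 without 1 of the 4 replicates. Outside the range were KLF2, KLF6, IER2, MAFG and RHOB. KLF6 had rates of 9.49, 0.501, 9.498 and 0.375, far apart between series with different second numbers.

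Feedback inhibitors of the same signals also decayed fast. Among 12 in-range MAP kinase phosphatases and ERK feedback genes the median was 0.354 ± 0.0236, with 9 faster and none slower. DUSP1, which removes phosphate from MAP kinases, had 0.790, 0.501, 0.746 and 0.484 (mean 0.630 ± 0.161, adjusted p = 0.00755), with all 4 series above those of the median gene. DUSP4 stood in the middle at 0.351 ± 0.0304, and the receptor tyrosine kinase inhibitor SPRY2 had 0.469 ± 0.106. SPRED1 had the lowest rate of the list, 0.167 ± 0.0418, and was not called (adjusted p = 0.647). The ID and HES repressors, which block differentiation factors, had a median of 0.415 ± 0.0254 over 4 in-range genes, of which 3 were faster. HES1 had 0.871, 0.556, 0.815 and 0.409 and ID1 0.481, 0.511, 0.434 and 0.533, whereas HES2 had 0.217 ± 0.0484 (adjusted p = 0.0565).

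YAP and TAZ are coactivators that act with TEAD factors and are held back by LATS kinases. Of 15 in-range genes of the list of that pathway and its targets 9 were faster and 2 slower. The secreted targets CCN1 (0.790, 0.822, 0.846 and 0.767) and CCN2 (0.557, 0.679, 0.680 and 0.691) were the fastest, followed by AMOTL2 at 0.570 ± 0.0510. LATS2 and LATS1, the kinases, were also faster, at 0.411 ± 0.0744 (adjusted p = 0.00679) and 0.251 ± 0.0331 (adjusted p = 0.0155), though LATS1 was not without replicate 1 (0.0538). TEAD1, a DNA-binding partner, was slower than the median gene at 0.0955 ± 0.0143 (adjusted p = 0.00550), as was the receptor tyrosine kinase AXL at 0.0453 ± 0.0213 (adjusted p = 0.00265). YAP1 had 0.181 ± 0.0907 and WWTR1, which encodes TAZ, 0.133 ± 0.0616, and neither was called.

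In the SMAD and TGF-beta list, 11 of 16 in-range genes were faster and 1 was slower. SMAD7, the inhibitory SMAD, led with 0.666, 0.693, 0.598 and 0.434 (adjusted p = 0.00430). SKIL, a corepressor of SMADs, had 0.356 ± 0.0538 (adjusted p = 0.00424). SMAD3, which carries the signal to the nucleus, was faster at 0.277 ± 0.0679 (adjusted p = 0.0237), but not with the correlation between series (0.0776) or without replicate 1 (0.0726), 2 (0.0752) or 4 (0.0551). SMAD4, the common partner, had 0.152 ± 0.00533, SMAD2 a range from 0.0252 to 0.187 and the receptor TGFBR1 0.129 ± 0.0200, and these 3 genes were not called. The receptor BMPR2 was the slowest member at 0.0781 ± 0.00981 and was called slower (adjusted p = 0.00334). TGFBR2, the other TGF-beta receptor subunit, was faster at 0.265 ± 0.0148 (adjusted p = 0.00546), so the receptors did not share 1 side of the median.

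Cytokines, growth factors and chemokines had a median of 0.276 ± 0.0452 over 16 in-range genes, with 8 faster and none slower. With the correlation between series 4 were faster. LIF, a cytokine of the IL-6 family, was the fastest with 0.573, 0.618, 0.452 and 0.530, and HBEGF, an EGF receptor ligand, had 0.499 ± 0.0603. IL6 had 0.410, 0.628, 0.229 and 0.414 (adjusted p = 0.0252), and it missed the threshold without replicate 1 (0.0752), without replicate 4 (0.0738) and with the correlation (0.0602). NRG1, the slowest, had 0.0453 ± 0.101. In the list the heptamer TATTTAT is present in 12 of 15 genes with a 3′ UTR, against 32.6% of all genes. Other fast lists differed, with 3 of 3 AP-1 subunits and 15 of 20 KLF, IER and other early-response genes, but 0 of 4 ID and HES repressors. It was in 0 of 38 replication-dependent histone genes, and in 32 of 64 RAB and ARF GTPases, whose median rate lay below that of all genes.

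Cell cycle regulators spread from slow to fast. Of 20 in-range G1 cyclins, E2F factors and CDK inhibitors, 10 were faster and 3 slower. CDKN1B, the inhibitor p27, was the fastest at 0.487, 0.590, 0.408 and 0.571 (adjusted p = 0.00351), followed by the E2F repressor E2F8 at 0.424 ± 0.0315 and by CCNE2, which encodes a cyclin E, at 0.414 ± 0.0467. RB1, the retinoblastoma protein that restrains E2F, was the slowest at 0.0653 ± 0.0167 (adjusted p = 0.00261), and the kinase CDK4 was also slow at 0.0897 ± 0.0207. The 41 genes of G2/M and mitosis had a median of 0.156 ± 0.0186, close to that of all genes, with 11 faster and 13 slower. Their extremes were PTTG1, the securin of sister chromatids, at -0.00717 ± 0.00972, and HMGB2, a chromatin protein, at 0.382 ± 0.0745, and both were called.

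Replication-dependent histone genes decayed fast as a group. They had a median of 0.385 ± 0.0234 over 38 in-range genes, of which 35 were faster and none slower, and 34 were faster with the correlation between series. H2AC12, in the middle, had 0.364, 0.417, 0.398 and 0.347 (adjusted p = 0.00276). The fastest was H4C2 with 0.309, 0.579, 0.432 and 0.799, and it missed the threshold without replicate 2 (adjusted p = 0.0719) and without replicate 3 (0.0541). The slowest, H4C8, had 0.227 ± 0.0900 and was not called (adjusted p = 0.144). Both carry the stem-loops printed above. Of 7 in-range variant histones 3 were faster and 3 slower. H2AX had 0.377 ± 0.0402, whereas H2AZ2 had 0.00183 ± 0.0273. Many histone genes are near-identical copies, so reads could be split between them and single members are uncertain.

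Zinc finger genes of the ZNF series, most of them DNA-binding repressors, were the largest fast class. Over 296 in-range genes the median was 0.271 ± 0.0116, with 174 faster (133 with the correlation) and 5 slower. ZNF506, in the middle, had 0.300, 0.296, 0.245 and 0.265, and ZNF530 was the fastest with 0.601, 0.733, 0.777 and 0.570. ZNF12, the slowest by mean, had 0.269, -0.860, 0.221 and 0.201, so that replicate 2 set its mean. A further 61 of the 357 ZNF genes had no in-range transcript, against 1134 of all 11709 genes, so a larger share of this class was left out of the ranking. Enzymes that modify histones were also on the fast side, with 26 of 46 faster and 9 slower, and SETD1A, a histone H3 methyltransferase, had 0.452 ± 0.0474. Of 30 Mediator subunits, which link activators to RNA polymerase II, 13 were faster and 3 slower, and 8 and 2 with the correlation between series. MED26 was the fastest at 0.556 ± 0.163 and CCNC, the cyclin of its kinase module, the slowest at 0.0166 ± 0.0178. The 35 RNA polymerase II subunits and general factors had a lower median, 0.104 ± 0.00506, with 10 faster and 18 slower.

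**Figure D3:**
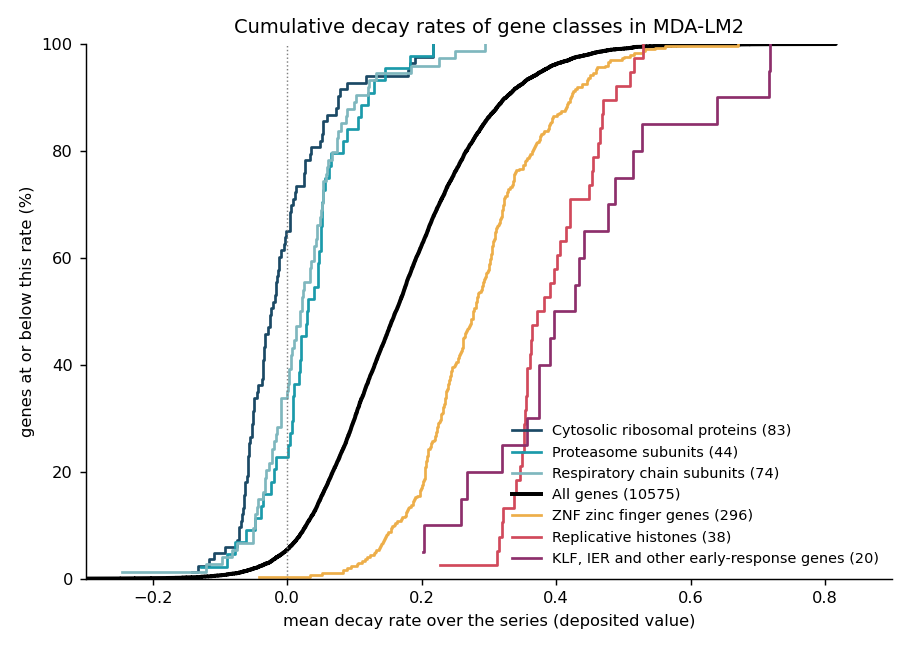
Cumulative percentage of genes at or below a given mean decay rate, for all in-range genes and for 6 classes, with the number of genes in parentheses. Cytosolic ribosomal protein, proteasome and respiratory chain genes lie left of all genes, and ZNF, replicative histone and early-response genes (KLF, IER and others) lie right of them.

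Cytosolic ribosomal protein transcripts were the slowest class. All 83 genes were in range, 76 of them slower than the median gene and none faster (70 slower with the correlation between series). Their median was -0.0307, -0.0115, -0.0283 and -0.0276 in replicates 1 to 4, below 0 in every series, and 41 genes had 4 rates below 0. RPL23A, in the middle, had -0.0459, 0.00148, -0.0367 and -0.0127 (adjusted p = 0.00194). RPL9 was the slowest at -0.141 ± 0.0842, and RPL13A the fastest at 0.217 ± 0.0789, not called (adjusted p = 0.176). Ribosomal protein genes have many processed pseudogenes, so reads could be split and single members are uncertain. How time points were scaled is not stated, so slow loss and a gain of RNA cannot be told apart for a rate below 0.

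Respiratory chain, antioxidant and proteasome genes had the next lowest medians. Respiratory chain subunits had a median of 0.0218 ± 0.0169 over 74 in-range genes, with 61 slower and 2 faster. NDUFS8, a complex I subunit in the middle of the list, had 0.0183, 0.0128, 0.0140 and 0.0432 (adjusted p = 0.00224). Antioxidant genes had a median of 0.0303 ± 0.0212 over 22 in-range genes, with 15 slower and 2 faster, and 15 and 0 with the correlation between series. Their slowest member was PRDX4, a peroxiredoxin, at -0.0881 ± 0.0112 (adjusted p = 0.00194). Subunits of the proteasome, the complex that degrades ubiquitin-tagged proteins, had a median of 0.0325 ± 0.00377 over 44 genes, with 38 slower and none faster. PSMC4, an ATPase of its regulatory cap, had 0.0270, 0.0341, 0.0389 and 0.0190, and PSMB9, a subunit of the immunoproteasome, was the slowest at -0.129 ± 0.129. All 8 subunits of CCT, the chaperonin that folds actin and tubulin, were slower (7 with the correlation), from CCT8 at 0.00449 ± 0.00701 to CCT3 at 0.0836 ± 0.00506. Mitochondrial ribosomal proteins were nearer to all genes, with series medians from 0.0949 to 0.109 and 33 of 73 slower and 6 faster.

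Classes of the secretory route and of metabolism were slow as well. Genes of the secretory pathway had a median of 0.0396 ± 0.00926, with 42 of 51 slower and 3 faster. DAD1, of the oligosaccharyltransferase, had -0.0734, -0.0567, -0.0460 and -0.0344. In the lysosome and V-ATPase list 24 of 33 were slower and none faster. Among 23 TCA cycle genes 19 were slower and 1 was faster, and among 20 glycolysis genes 13 were slower and 2 faster. LDHB, a subunit of lactate dehydrogenase, was the slowest of glycolysis at -0.0825 ± 0.0327. PFKFB3, which makes the activator of phosphofructokinase, was the fastest at 0.323 ± 0.0421 (adjusted p = 0.00569). In cholesterol synthesis the fastest and slowest members were INSIG1 and FDPS. INSIG1, the sterol-sensing brake of the pathway, had 0.432, 0.490, 0.405 and 0.422, and FDPS, a synthase of the pathway, -0.0892 ± 0.0752, and both were called. In that list 7 of 22 in-range genes were slower and 2 faster.

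Of 39 heat shock and DNAJ genes, 15 were slower and 7 faster, and 15 and 5 with the correlation between series. HSPB1 was the slowest at -0.0426 ± 0.0596 and was called slower (limma adjusted p = 0.00474). HSPH1, in the middle, had 0.143 ± 0.0130 and was not called. The mitochondrial chaperonin subunits HSPD1 (0.0528 ± 0.0123) and HSPE1 (0.0170 ± 0.0304) were slower. DNAJB1 (0.463, 0.461, 0.501 and 0.389) and BAG3 (0.413, 0.590, 0.477 and 0.398) were faster. Among 42 in-range RNA decay factors, 10 were faster and 9 slower (6 and 7 with the correlation), which is 23.8% and 21.4%, against 25.5% and 28.6% of all genes. The nuclear exonuclease XRN2 had 0.0495 ± 0.0103 and the exosome subunit EXOSC8 0.00856 ± 0.0260, both slower, whereas the decapping cofactor DCP1A had 0.330 ± 0.0495 and the CCR4-NOT subunit CNOT3 0.383 ± 0.0417, both faster. Of 13 proteins that bind AU-rich elements or related motifs, 5 were faster and 1 was slower. ZFP36L1, which recruits the deadenylase to AU-rich elements, was the fastest of them with 0.544, 0.522, 0.582 and 0.491 (adjusted p = 0.00240). ELAVL1, the stabilising protein HuR, had 0.132 ± 0.00998 and was not called.

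Called genes that were eligible for naming had mean rates from -0.261 (TMEM219) to 0.816 (MYC). The lowest mean of any in-range gene was that of CLU, clusterin, with -0.848, 0.206, -0.902 and -0.721, which was not called (adjusted p = 0.926). The fit sets variances in part by a trend over the mean rate. At this lowest mean, the p-value therefore does not rest on the spread of CLU alone, and it does not place CLU near the median gene. MYC, the growth-promoting transcription factor, was the fastest in-range gene with 0.854, 0.763, 0.7498 and 0.896 (mean 0.816 ± 0.0709, adjusted p = 0.00236). CCN1 was the next named gene, at 0.806 ± 0.0348. Also among the 15 fastest were CCDC85B (0.685 ± 0.0751), BRF2, a subunit of an initiation factor of RNA polymerase III (0.673 ± 0.150), and MIDN, midnolin (0.665 ± 0.216). NEURL4, NKPD1, PRICKLE1 and MIDN differed by pair of series: NKPD1 had 0.364 and 0.517 in replicates 1 and 3 and 0.904 and 0.964 in replicates 2 and 4. The call of NEURL4 was lost without replicate 3 (adjusted p = 0.0512), that of NKPD1 without replicate 2 (0.0669) or 4 (0.0540), and that of PRICKLE1 without replicate 1 (0.0527) or 3 (0.0755).

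At the slow end, the lowest named gene that passed the test was TMEM219, with -0.136, -0.332, -0.191 and -0.385 (mean -0.261 ± 0.117, adjusted p = 0.0175). All of its rates were below 0, but the call was lost without replicate 1 (0.149) or 3 (0.0775). Calls were more even for S100A4, a calcium-binding protein known for its role in metastasis, with -0.157, -0.130, -0.197 and -0.165 (adjusted p = 0.00231), for PHACTR2, a regulator of phosphatase 1 and actin, with -0.217, -0.142, -0.163 and -0.187 (adjusted p = 0.00265), and for the cytochrome P450 gene CYP2J2 with -0.208, -0.285, -0.128 and -0.185 (adjusted p = 0.00501). The rate of PHACTR2 rests on 2 in-range transcripts of 4 measured. TERC, the RNA template of telomerase, had -0.164, -0.0712, -0.195 and -0.177. LAMTOR2, a scaffold subunit on lysosomes, had -0.155 ± 0.0794, and FBP1, a gluconeogenic enzyme, -0.143 ± 0.0991. Of the 15 slowest named genes, NDUFB11, NHERF2, CAPNS1, CYB561A3, SPHAR and COA3 were no longer called with the correlation between series, with adjusted p from 0.0536 to 0.0986. Without 1 replicate, each of these 6 and CBR3-AS1 lost its call for at least 1 choice. For NDUFB11, NHERF2 and CYB561A3, 1 of 2 measured transcripts was in range.

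**Figure D4:**
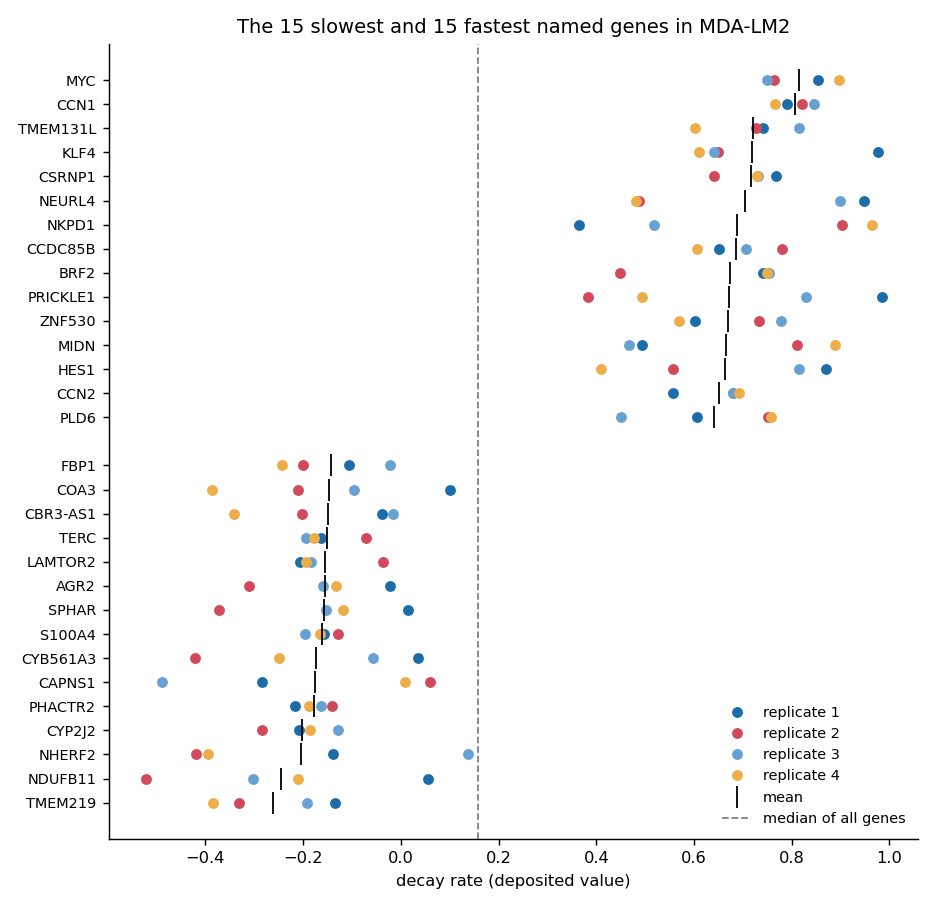
Decay rates of the 15 slowest and 15 fastest named genes in the 4 replicate series (points), with the mean (black bar) and the median of all genes (dashed line, 0.158). All points of the fast genes lie right of the line and all points of the slow genes lie left of it, and genes such as NKPD1, NEURL4 and HES1 separate replicates 1 and 3 from replicates 2 and 4.

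Transcripts that mark the cell type were more often slower than the median gene than faster. Of the mesenchymal and basal breast cancer markers with a rate, all 15 were in range, with 8 slower and 2 faster. FN1, fibronectin, had 0.0253, 0.0181, 0.0195 and 0.0220, and VIM, the intermediate filament vimentin, 0.0215, 0.0551, 0.0253 and 0.0384. The 2 faster members were PLAU, the urokinase protease, with 0.476, 0.517, 0.5002 and 0.487, and SNAI2, a transcription factor of the epithelial-mesenchymal transition, with 0.369, 0.535, 0.702 and 0.397. Of the luminal epithelial markers, 9 were in range, with 5 slower and none faster. Among them were EPCAM at -0.00344 ± 0.0708, which lost its call without replicate 3, and KRT19 at 0.0598 ± 0.0245. KRT18, in the middle, had 0.0911 ± 0.0351. CLDN4, the fastest, had 0.407 ± 0.198 and was not called (limma adjusted p = 0.0586). A rate gives no level, so it says only that a transcript was measured. Of immune, endothelial and fibroblast markers, CD68, LYZ and KDR had rates. CD68 was called slower, and LYZ and KDR faster. LYZ lost its call without replicate 2, 3 or 4. KDR lost its call without replicate 1, 2 or 4, and with the correlation between series.

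Genes linked to lung metastasis of this line numbered 10 in range. Of these 2 were faster and 3 slower, shares near the 25.5% and 28.6% of all genes. ID1, given above, and PTGS2, the inducible cyclooxygenase (0.554, 0.343, 0.555 and 0.341, adjusted p = 0.0132), were faster. The matrix protein TNC was slower. MAN1A1 and ROBO1, the other slower members, lost their calls without replicate 3 (adjusted p = 0.0888 and 0.0546), and MAN1A1 also without replicate 2 (0.0601) and with the correlation (0.0546). The list median minus that of all genes was 0.0230, and it was -0.000402 without replicate 1. The study is known for the RNA-binding protein TARBP2, which destabilises transcripts such as APP and ZNF395. The in-range transcript of TARBP2 had 0.121, 0.235, 0.695 and 0.208 (adjusted p = 0.257), and its other transcript 0.193, 9.32, 0.218 and 0.205. ZNF395 was faster than the median gene, with 0.270, 0.236, 0.289 and 0.246 (adjusted p = 0.0106). Of 4 APP transcripts 1 was in range, with 0.0857, 0.0974, 0.112 and 0.0156. It was called slower (adjusted p = 0.0221), but not without replicate 1 (0.0565) or 2 (0.0668), nor with the correlation (0.0503).

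Long noncoding RNAs decayed faster than coding transcripts on the whole. Their median was 0.206 ± 0.0126 over 463 in-range transcripts, against 0.149 ± 0.0106 over 11076 coding transcripts of protein-coding genes, and 30.5% were faster and 10.4% slower than the median transcript. NEAT1, the scaffold of nuclear paraspeckles, had 0.340, 0.305, 0.297 and 0.322 and was faster (adjusted p = 0.00387), whereas the nuclear RNA MALAT1 (0.136 ± 0.0127) and the cytoplasmic NORAD (0.135 ± 0.0319) were not called. Of the 16 in-range genes in the list of hosts of small nucleolar RNAs, 4 were faster and 4 slower, shares near the 25.5% and 28.6% of all genes. GAS5, which starts with an oligopyrimidine tract as ribosomal protein mRNAs do, had 0.00705, 0.0279, 0.0267 and 0.0205 and was slower (adjusted p = 0.00194). SNHG6 was the slowest of the listed hosts at -0.0313 ± 0.0307, and SNHG17 the fastest at 0.396 ± 0.0468, both called. The list is not complete. SNHG29, a host gene outside it, had an in-range transcript at -0.0885 ± 0.0206 that was slower than the median transcript.

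In some genes the annotated transcripts lay far apart in rate. In 1418 genes at least 2 transcripts were in range, and the fastest exceeded the slowest by a median of 0.0866, compared with an interquartile range of 0.163 over all in-range transcripts. The rates of these 2 transcripts did not overlap between the 4 series in 363 genes (25.6%). The fastest and slowest transcripts were picked by these same rates, so this share is a description only and was not tested. The largest such differences were in MRPL42, a mitochondrial ribosomal protein, GOLGB1, a Golgi protein, RPS27A, RPL31 and APEX1, a DNA repair endonuclease. In RPS27A, which encodes a ubiquitin fused to a ribosomal protein, one transcript had -0.0864, -0.0276, -0.0829 and -0.0311 and the other 0.444, 0.469, 0.478 and 0.269. In RPL31 the rates were -0.0904, -0.0776, -0.0680 and -0.0751 against 0.276, 0.520, 0.552 and 0.222. A pair of transcripts of APC, the scaffold of the beta-catenin destruction complex, had 0.0374 ± 0.0288 and 0.459 ± 0.0528. Transcripts of 1 gene share most of their exons, and how reads were assigned to them is not stated, which leaves these differences uncertain.

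Of the transcript features read from GENCODE, exon density followed the rate most closely. In 5 equal groups of transcripts, from the fewest exons per kb to the most, the median rate was 0.209 ± 0.0113, 0.171 ± 0.0109, 0.147 ± 0.0119, 0.128 ± 0.00835 and 0.0989 ± 0.00891 (2210 transcripts each), lower at each step. Spearman's rho across 11050 transcripts was -0.274 ± 0.00556 over the 4 series, and within 5 equal groups by mRNA length it lay between -0.268 and -0.183. Transcripts with 1 exon had a median of 0.271 ± 0.0188, and 0.239 ± 0.0117 once replication-dependent histones were left out. Transcripts with 2 exons had 0.245 ± 0.0129 and those with 5 to 9 exons 0.141 ± 0.0109. In the fastest 10% of transcripts 14.8% had 1 or 2 exons, against 2.84% in the slowest. Classes differ in this feature too, with a median of 1.36 exons per kb in ZNF genes and 6.03 in cytosolic ribosomal protein genes.

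**Figure D5:**
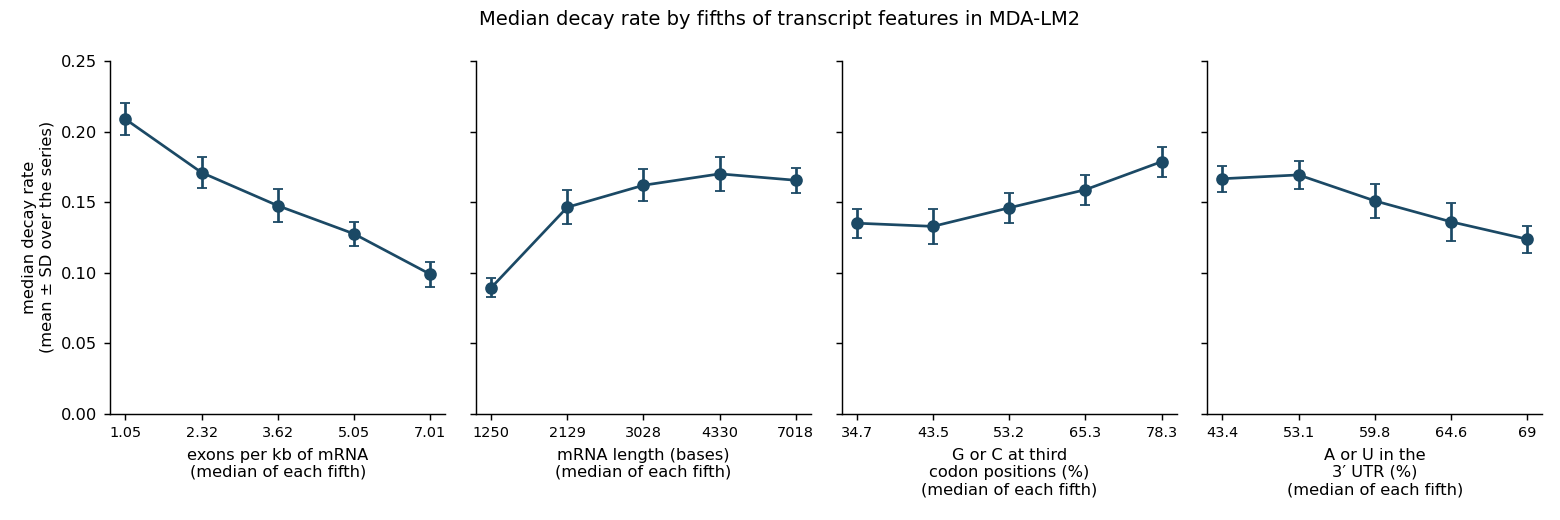
Median decay rate (mean of the 4 series, bars show SD) in 5 equal groups of 11050 in-range coding transcripts by exons per kb, mRNA length, G or C at the third codon position and, for 10888 of them, A or U in the 3′ UTR, with the median of each group on the x axis. The median rate is 0.209 at the lowest exon density and 0.0989 at the highest, a wider span than for the other 3 features.

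Length and base composition went with the rate more weakly. Spearman's correlation was 0.180 ± 0.00155 for mRNA length, where the shortest of 5 equal groups stood apart with a median rate of 0.0893 ± 0.00682 and the other 4 lay between 0.146 and 0.170. G or C at the third codon position gave 0.107 ± 0.00359, and A or U content of the 3′ UTR -0.112 ± 0.00907. The AU-rich pentamer ATTTA per kb of 3′ UTR gave 0.00516 ± 0.00639, but the median rate did not change in one direction. From the lowest to the highest of 5 equal groups by pentamer density it was 0.119, 0.174, 0.166, 0.148 and 0.136. Transcripts with the heptamer TATTTAT had a median of 0.162 ± 0.0126 and those without it 0.143 ± 0.0101, and the difference was largest among the shortest 3′ UTRs (0.154 ± 0.0101 with and 0.108 ± 0.0108 without) and of the opposite sign among the longest (0.158 ± 0.0121 and 0.170 ± 0.00869). The pumilio motif TGTANATA, searched in the same way and present in 27.2% of transcripts, gave 0.167 ± 0.00956 with and 0.142 ± 0.0105 without. Among the longest 3′ UTRs the values lay close, at 0.159 ± 0.00994 with and 0.163 ± 0.0136 without. The sign there was not the same in all series, since replicate 1 had 0.151 with and 0.149 without. These are descriptions across transcripts, which share genes, exons and library depth, and no test was made of them.

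Transcripts outside the range formed clusters apart from the main peak. Of 4093 rates beyond 1 of 0, 41.0% lay between 1 and 4, 30.1% between 9 and 10, 16.1% between -4 and -1 and 7.55% between -12 and -6, and 1 lay between 4 and 6. In 1002 of the 2216 transcripts 1 series was beyond 1, and in 736 there were 2, which shared the second label number in 559. All 4 rates were beyond 1 in 185 transcripts, above 1 in all series for 102 and below -1 in all for 7. The share out of range was 10.6% for transcripts of genes with 1 transcript in the table and 30.5% for genes with 5 or more. It was 56.4% for transcripts with a rate in MDA-LM2 only and 10.2% for the rest.

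All 4 rates were above 8 in 30 transcripts, 19 of them the only transcript of their gene in the table. How zero counts were handled is not stated, and whether such values stand for faster loss than in-range rates was not tested. The highest of the 30 was SNORD28, a small nucleolar RNA, with 10.7, 11.01, 10.9 and 10.98, followed by the microRNA gene MIR1282. CEBPB, a leucine zipper factor induced by stress and cytokines and made from a single exon, had 9.07, 9.22, 9.16 and 9.34, and DNAJB5, a co-chaperone, 9.32, 9.37, 9.31 and 9.37. One transcript of MITF, the melanocyte master regulator, had 9.38, 9.64, 9.49 and 9.61. Among those below -1 in all series were single transcripts of DTNB, GNE, ADAM22, CRTC3, LIPA and C11orf68, of which LIPA, lysosomal acid lipase, had -2.30, -1.73, -2.17 and -1.99. HERPUD1, a stress-induced gene of the endoplasmic reticulum, had 2.35, 2.47, 2.39 and 2.36, all far above the in-range peak and below the cluster near 9. At the edge of the range, transcripts of SETDB1, with a largest rate of 0.994, and CORO2B, with -0.998 in replicate 3, were kept. Transcripts of PEX2, with a largest rate of 1.0009, and CPED1, with 1.0011, were left out.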

How the data were processed

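Metabolically labelled RNA of MDA-LM2 was sequenced by the authors at 4 time points. Per the file headers the deposited values are decay rates per transcript and replicate series; per the labels, the 16 libraries of the 4 time points went into this score, which the authors computed before deposit, and its log base, scaling and handling of zero counts are not stated. Read depth is unknown, no half-lives were derived, and no count test was made. Per the submitters' processing notes TopHat, Cufflinks and build hg18 were named, without roles or versions.

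Rates minus the median of their series were fitted with limma 3.58.1 in R 4.3.3 (intercept against 0, variance trend, two-sided, Benjamini-Hochberg adjusted p under 0.05), over all in-range transcripts and over genes. Symbols came from the RefSeq gene table for 14163 transcripts and from GENCODE 29 for 140, and 242 had none. Transcript features were read from GENCODE 29 (GRCh38) by accession for 11050 in-range coding transcripts, so the models may differ from those used for the rates. The fits were also run on simulated data with known differences, and no result given here rests on those runs. Alternatives were other ranges, centring, variance models, margins, correlations between series and leaving out each series.

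Members and gene lists were chosen with earlier results of these data known. Named by rule were the 15 fastest and 15 slowest genes past the threshold, and the slowest, middle and fastest member of a list. For the 15 at each end, genes without a symbol and symbols starting LOC, MIR, SNOR, FAM, KIAA or LINC, or of the C-orf form, were passed over. Transcripts at the extremes and at the edge of the range were also named by rule. The other genes were chosen after their values were seen. List medians and feature relations carry no test. Rates of the other line were not used.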

Additional observations from a re-analysis of the deposited data

Results flagged for a closer look

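In each result below, 1 of the 4 series stood apart from the other 3 by more than Dixon's 95% critical value. This held for 12 of the 190 genes and list medians looked at, and for 4.40% of all 10575 genes, where chance gives about 1 in 20.

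Replicate 1 stood apart for KLF4, at 0.976, and for CCN2, at 0.557. Replicate 2 stood apart for BRF2, at 0.448, for CLU, at 0.206, for LAMTOR2, at -0.0365, and for ZNF12, at -0.860. Replicate 4 stood apart for IER3, at 0.618. Among list medians, that of the MAP kinase phosphatases and ERK feedback genes was low in replicate 1, at 0.319. Replicate 2 was high for the ZNF genes, at 0.288, the cytosolic ribosomal proteins, at -0.0115, the respiratory chain, at 0.0468, and the F-box and cullin ligase components, at 0.182. The median of all genes was also highest in replicate 2, at 0.173, against 0.149 to 0.157 in the others.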

How the results depend on the processing

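Counts of calls moved with the size and independence asked for. Without centring, 9426 transcripts and 8646 genes were above 0 and 115 and 96 below. Beyond a difference of 0.05, 1396 transcripts were faster and 1666 slower, and 1337 and 1644 genes. Beyond 0.1 the counts were 0 and 0 transcripts (limma, unadjusted p under 0.05: 1173 and 922) and 108 and 194 genes. With a correlation between series of the same second label number, 1892 transcripts were faster; beyond 0.1 with that correlation, an alternative chosen after seeing the data, the counts were 0 for transcripts (unadjusted 872 and 726) and 0 for genes (783 and 700). Leaving out 1 replicate gave 1735 to 1996 faster transcripts. A correlation by the first label number gave 4171 and 4216 transcripts. It was estimated at -0.554, against 0.409 by the second label number, and with a negative estimate that fit is less strict than the main one.

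The share in range was 83.9% for a range of 0.75, 87.3% for 2, and 85.9% to 87.2% without 1 replicate. Spearman's correlation with exon density was -0.295 in genes with a single transcript. Read in the series not used for ranking, the slowest 10% had a median of 0.0273 or 0.0202, against -0.0151, and the fastest 0.324 or 0.301, against 0.378. Of 53 lists, 49 to 53 stayed on the same side of the median gene under each alternative. Of 115 called genes named here, 83 lost the call beyond a difference of 0.1, 13 with the correlation and 15 to 19 without 1 replicate, and 0 changed direction.

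No paired analysis was possible because only 1 line was fitted and no groups were compared. With 4 series, an unknown rate scale and unknown read depth, small differences between genes cannot be resolved.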
